A study of Mus musculus with 2 samples.

Results

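The integrated stress response genes Atf4, Ddit3, Trib3, Asns, Chac1, Atf3, Fgf21, Gdf15, Psat1 and Sesn2 were examined in single-nucleus RNA-seq of interscapular brown adipose tissue (BAT). These 10 members were taken by symbol from the 32285 genes of the count tables. They filled 11 lines, since Ddit3 was listed under 2 identifiers and the second of them (ENSMUSG00000116429) had 0 UMIs in both libraries. The study asked how loss of the splicing factor SRSF1 in fat changed brown adipocytes. The WT library came from Srsf1 flox/flox mice without Cre, and the KO library from their Adipoq-Cre; Srsf1 flox/flox littermates, both 8 weeks old and, per the methods, male. Cre is driven by the adiponectin promoter, which is active in adipocytes, and both groups carry the floxed Srsf1 allele. Each genotype has 1 library, from a number of mice that is not given, so every difference between KO and WT is also a difference between 2 libraries, and no test was made.

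In the integrated stress response, kinases that sense amino acid shortage, unfolded proteins, double-stranded RNA or mitochondrial and haem defects phosphorylate the translation factor eIF2alpha. General translation slows, while the mRNA of the transcription factor ATF4 is translated more. ATF4, with partners such as CHOP (Ddit3), switches on genes for amino acid synthesis and transport, tRNA charging, feedback inhibitors and the secreted hormones FGF21 and GDF15. Much of the control of ATF4 is on translation, which counts of RNA do not measure. In brown fat the pathway is known to respond to mitochondrial stress.

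The WT table held 12846 barcodes with 93102814 UMIs and the KO one 11495 barcodes with 80090208 UMIs, and 52 barcodes occurred in both. Nuclei were assigned to a class by the summed UMIs of marker lists, which gave 4436 WT and 1727 KO adipocyte nuclei with median depths of 7358 and 6539 UMIs. The other classes compared were adipose stem and progenitor cells (ASPC, 438 and 2027 nuclei), endothelial (2940 and 1279), mural (355 and 210) and immune nuclei (757 and 4252). All 8 adipocyte markers were found in the adipocyte nuclei of both libraries, at 11754 and 11515 CPM (UMIs per 1000000 UMIs of the class). Srsf1, the targeted gene, stood at 182 CPM in WT and 62.4 CPM in KO adipocyte nuclei, and its counts do not separate deleted from intact exons. The median mitochondrial share of adipocyte nuclei was 0.771% in WT and 0.0423% in KO, and immune markers stood at 139 CPM in WT and 249 CPM in KO adipocyte nuclei. The part of either in the results was not tested. The adipocyte class was taken whole. The study divides it into brown and white subclusters that WT and KO nuclei fill unequally, so the values compare classes of different makeup.

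ATF4 and its C/EBP partners are known to bind composite elements that contain the letters TGATGNAA, and promoter windows of the members are shown here for that reason. All 10 members had RefSeq promoter windows (GRCm38.p6, 250 bases before to 50 after a start, 12 windows in all). TGATGNAA was found on one strand or the other in windows of 5 members, Trib3, Asns, Chac1, Atf3 and Fgf21, while 3.97% of all 32851 windows held it. The CRE letters TGACGTCA were in no member's window and in 1.79% of all windows. The 5 windows follow, 5′ to 3′ along the gene, with TGATGNAA or its reverse complement in capitals. They lie at chr2:152344011-152344310 (Trib3, minus strand), chr6:7693160-7693459 (Asns, minus), chr2:119350992-119351291 (Chac1, plus), chr1:191183284-191183583 (Atf3, minus) and chr7:45615441-45615740 (Fgf21, minus).
Trib3: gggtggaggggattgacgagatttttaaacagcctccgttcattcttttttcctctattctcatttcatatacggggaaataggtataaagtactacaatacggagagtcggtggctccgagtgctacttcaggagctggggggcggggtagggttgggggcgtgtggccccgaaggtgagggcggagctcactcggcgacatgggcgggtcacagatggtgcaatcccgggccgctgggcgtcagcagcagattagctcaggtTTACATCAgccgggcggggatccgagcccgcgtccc
Asns: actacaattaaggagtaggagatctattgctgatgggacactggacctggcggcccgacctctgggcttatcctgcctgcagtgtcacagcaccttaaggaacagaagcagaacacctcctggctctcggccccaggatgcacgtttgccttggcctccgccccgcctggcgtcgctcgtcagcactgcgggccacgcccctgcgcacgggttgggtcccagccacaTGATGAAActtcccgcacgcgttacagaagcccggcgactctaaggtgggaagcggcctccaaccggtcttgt
Chac1: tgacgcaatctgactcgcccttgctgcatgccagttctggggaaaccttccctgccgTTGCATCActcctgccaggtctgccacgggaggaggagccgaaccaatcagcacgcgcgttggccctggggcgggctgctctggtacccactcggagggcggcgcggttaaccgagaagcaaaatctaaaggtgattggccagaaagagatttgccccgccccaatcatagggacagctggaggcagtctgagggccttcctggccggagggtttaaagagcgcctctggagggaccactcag
Atf3: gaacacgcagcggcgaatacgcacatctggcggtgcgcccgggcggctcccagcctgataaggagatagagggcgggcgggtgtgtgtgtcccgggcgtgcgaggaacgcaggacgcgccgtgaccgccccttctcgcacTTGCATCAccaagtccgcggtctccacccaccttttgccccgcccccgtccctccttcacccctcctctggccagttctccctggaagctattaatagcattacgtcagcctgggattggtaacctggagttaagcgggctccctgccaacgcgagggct
Fgf21: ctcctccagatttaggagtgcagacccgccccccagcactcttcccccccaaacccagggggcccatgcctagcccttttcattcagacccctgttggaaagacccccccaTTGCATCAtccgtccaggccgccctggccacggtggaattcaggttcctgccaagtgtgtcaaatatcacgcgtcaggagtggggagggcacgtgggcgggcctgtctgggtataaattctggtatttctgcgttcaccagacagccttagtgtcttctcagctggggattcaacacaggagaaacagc
The letters began at base 265 of the window for Trib3, 228 for Asns, 58 for Chac1, 141 for Atf3 and 112 for Fgf21. Counted from the RefSeq start that sets each window, they lay after it for Trib3 and before it for the other 4. GENCODE, whose gene bounds are given with the levels, places some starts elsewhere, so that by those bounds the letters lie outside the Trib3 gene and inside the Asns and Atf3 genes. A match describes these letters alone, and its absence from the windows of Atf4, Ddit3, Gdf15, Psat1 and Sesn2 covers no more than these bases.

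In adipocyte nuclei, 7 of the 10 members were at least 2-fold higher in the KO than in the WT library and 0 were at least 2-fold lower, while 17.2% of 15185 genes with at least 50 UMIs were at least 2-fold higher and 18.5% at least 2-fold lower. The median log2 ratio of KO over WT was 2.11 for the members and 0.03 for all those genes. The members past 2-fold were Gdf15, Trib3, Fgf21, Psat1, Chac1, Sesn2 and Asns, among which Asns was nearest to the limit. Ddit3 was the next below it, and Atf4 and Atf3 were lower in KO. The intervals given are exact 95% intervals and cover counting error only. They lay above 0 on the log2 scale for 8 members and below 0 for Atf4 and Atf3. Fgf21 alone had fewer than 50 UMIs.

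**Figure D1:**
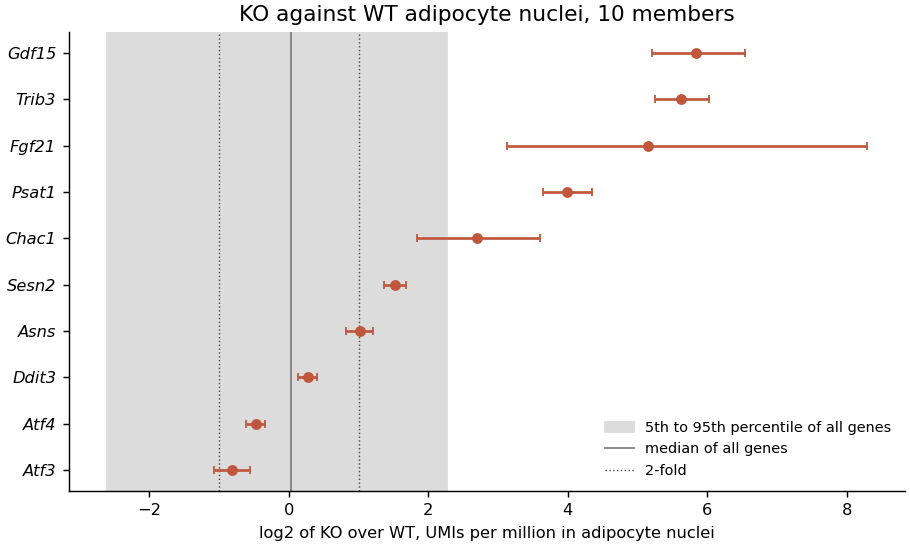
log2 ratio of KO over WT (CPM, summed over adipocyte nuclei) for the 10 members, with exact 95% counting intervals as bars, the 5th to 95th percentile of all genes in grey, and 2-fold as dotted lines. Gdf15, Trib3, Fgf21 and Psat1 lie above the 95th percentile of 2.27 with their whole intervals, and Atf4 and Atf3 lie below 0.

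The transcription factors did not share a direction. Atf4 (ENSMUSG00000042406, chromosome 15 from 80255184 to 80257541), the central activator of the response, had 2621 UMIs or 57.5 CPM in WT and 582 UMIs or 41.3 CPM in KO adipocyte nuclei. The log2 ratio was -0.48 (interval -0.61 to -0.35), and 69.7% of all genes had a ratio at least as high. So, summed over the adipocyte class, the Atf4 transcript was lower in KO while Trib3, Gdf15 and Psat1 were higher. Within KO, Atf4 was not lower in nuclei with Trib3 (45.8 CPM) than in those without it (37.9 CPM). Ddit3 (ENSMUSG00000025408, chromosome 10 from 127290774 to 127296288), which encodes the proapoptotic factor CHOP, had 36.3 CPM in WT and 43.9 CPM in KO. Its log2 ratio of 0.27 (0.14 to 0.41) was above 0 in counting error but within the middle of all genes, of which 39.5% were at least as high. Ddit3 overlaps its second identifier on the same strand, so reads shared by both could not be assigned. It lies on the strand opposite to Mars and Gm4189, and whether counting used strand is not stated. Atf3 (ENSMUSG00000026628, chromosome 1 from 191170296 to 191218039), an early stress-induced factor of the same family, had 18.7 CPM in WT and 10.6 CPM in KO, a log2 ratio of -0.81 (-1.07 to -0.56).

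Trib3 and Gdf15 showed the largest ratios of the members as counted here. Their order changed with no filter on nuclei (log2 ratio 5.32 for Trib3 and 5.21 for Gdf15), and under a stricter class call, with the leading class 3 times ahead of the second, Fgf21 at 5.77 was above both. Trib3 encodes a pseudokinase that is induced by ATF4 and CHOP and binds both ATF4 and AKT. Trib3 (ENSMUSG00000032715, chromosome 2 from 152337422 to 152344032) had 61 UMIs or 1.34 CPM in WT and 930 UMIs or 66.0 CPM in KO adipocyte nuclei. That is 49.3-fold, a log2 ratio of 5.62 (5.25 to 6.02), and 0.474% of all genes had a ratio at least as high. At least 1 Trib3 UMI was found in 1.24% of WT nuclei (0.935 to 1.61%) and in 32.7% of KO nuclei (30.4 to 34.9%). Among KO adipocyte nuclei, 348 held 1 Trib3 UMI, 124 held 2 and 92 held 3 or more, with 7 as the most in any nucleus. When those nuclei were sorted into 10 equal groups by depth, Trib3 was found in 13.9% of the shallowest and 61.6% of the deepest. Its level ranged between 57.3 and 92.2 CPM over the 10 groups and was 62.0 CPM in the deepest, so the share of nuclei followed depth while the level did not climb with it.

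The members of amino acid metabolism were higher in KO. Psat1 (ENSMUSG00000024640, chromosome 19 from 15904678 to 15947337), the aminotransferase of serine synthesis, had 85 UMIs or 1.86 CPM in WT and 417 UMIs or 29.6 CPM in KO. This was a 15.9-fold difference with a log2 ratio of 3.99 (3.65 to 4.34). Asns (ENSMUSG00000029752, chromosome 6 from 7675169 to 7693254), asparagine synthetase, went from 12.6 CPM in WT to 25.6 CPM in KO. The Asns log2 ratio of 1.02 (0.82 to 1.21) straddled the 2-fold limit within its interval, and 16.9% of all genes were at least as high. It was below 2-fold in 4 alternatives, the lowest of them at 0.91. Chac1 (ENSMUSG00000027313, chromosome 2 from 119351229 to 119354381), which degrades glutathione, was scarce, with 18 UMIs or 0.395 CPM in WT and 36 UMIs or 2.55 CPM in KO. Its log2 ratio was 2.69 (1.84 to 3.60). Sesn2 (ENSMUSG00000028893, chromosome 4 from 132492032 to 132510501), a leucine sensor that restrains mTORC1, had 14.5 CPM in WT and 41.8 CPM in KO. The log2 ratio of Sesn2 was 1.52 (1.36 to 1.69), and 9.90% of all genes were at least as high. Sesn2 overlaps Gm12981 on the same strand, so reads shared by both could not be assigned.

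Both secreted members were rare in WT adipocyte nuclei and more frequent in KO. Gdf15 (ENSMUSG00000038508, chromosome 8 from 70629393 to 70632456), a stress hormone that acts on appetite through the brainstem, had 21 UMIs or 0.461 CPM in WT and 371 UMIs or 26.3 CPM in KO. The ratio of 57.1-fold, 5.84 on the log2 scale (5.20 to 6.54), was the highest value among the members, and 0.395% of all genes were at least as high. The share of adipocyte nuclei with Gdf15 was 0.361% in WT and 14.4% in KO. Fgf21 (ENSMUSG00000030827, chromosome 7 from 45613886 to 45615490), a hormone of fasting and mitochondrial stress, had 2 UMIs in WT and 22 UMIs, each in a nucleus of its own, in KO. At 0.0439 and 1.56 CPM its log2 ratio was 5.15 with a wide interval of 3.13 to 8.29. Thinned to 1000 UMIs per nucleus, WT held 0 UMIs, and the log2 ratio was at least 1.78 against 3 counts. Of the receptors, Klb, the coreceptor of FGF21, had 39.3 CPM in WT and 54.1 CPM in KO, and Fgfr1 had 102 and 141 CPM. Gfral, the receptor of GDF15, had 0 UMIs in both.

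**Figure D2:**
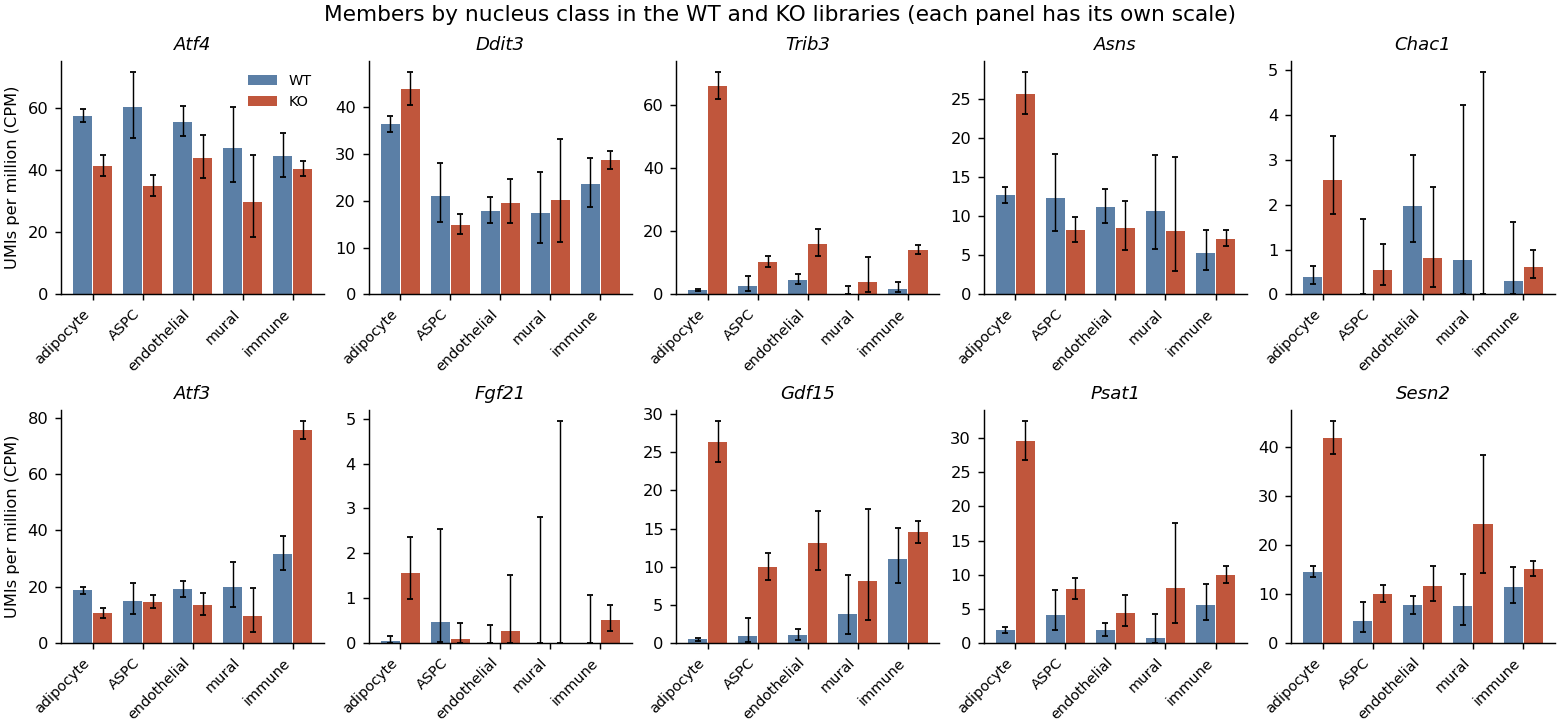
CPM of each member in 5 classes of nuclei of the WT (blue) and KO (red) libraries, with exact 95% Poisson intervals as bars and a separate scale in each panel. Among the 5 classes, which leave out unclassed nuclei, Trib3, Gdf15, Psat1, Chac1, Fgf21, Asns and Sesn2 are highest in KO adipocyte nuclei. Atf3 is highest in KO immune nuclei at 75.6 CPM.

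Outside adipocytes, fewer members were past 2-fold. At least 2-fold higher in KO were 3 of the 8 members with a ratio in ASPC, against 6.05% of all genes. They were Trib3, Gdf15 and Sesn2, from 6, 2 and 10 WT UMIs. In endothelial nuclei they were 3 of 9 (Trib3, Gdf15 and Psat1), against 3.97%. In mural nuclei they were 3 of 7 (Gdf15, Psat1 and Sesn2), against 4.16% of all genes. These rested on 5, 1 and 10 WT and 6, 6 and 18 KO UMIs. In immune nuclei they were 3 of 9 (Trib3, Atf3 and Chac1), against 7.89%. Chac1 rested on 1 WT and 17 KO UMIs, and Trib3 on 6 and 394. The shares of all genes cover genes with at least 50 UMIs. In the 4 classes, in this order, 8, 7, 1 and 8 members reached that, and the others are sparser than the genes they are set beside. At least 2-fold lower in KO were 0 members in ASPC and in immune nuclei, Chac1 in endothelial and Atf3 in mural nuclei, against 11.4%, 11.9%, 14.0% and 11.4% of all genes in these classes. The intervals of both lower values included 0. Asns was not higher in ASPC (log2 ratio -0.59, interval -1.21 to 0.08) or endothelial nuclei (-0.40, -1.03 to 0.19).

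Trib3 was also found in KO nuclei of other classes. Its level there was 10.2 CPM in ASPC (interval 8.56 to 12.1), 16.04 CPM in endothelial (12.2 to 20.7), 4.03 CPM in mural (0.831 to 11.8) and 14.2 CPM in immune nuclei (12.8 to 15.7). The WT levels were 2.74, 4.70, 0 and 1.74 CPM in the same order, where 0 UMIs in the mural class allow up to 2.28 CPM. None of the KO intervals reached that of KO adipocyte nuclei. Under the stricter class call they were 6.51 CPM in ASPC, 10.1 CPM in endothelial and 9.34 CPM in immune nuclei. Thinned to 1000 UMIs, 6.37% of KO adipocyte nuclei and 0.940% of KO endothelial nuclei held Trib3, against 32.7% and 3.67% at full depth, where endothelial nuclei had a median of 2124 UMIs. These classes also held adipocyte transcripts, with adipocyte markers at 1696 CPM in ASPC, 3000 CPM in endothelial, 2340 CPM in mural and 2264 CPM in immune KO nuclei. In WT the markers were higher, at 3190, 5201, 4248 and 3078 CPM in the same order. Ratios of KO over WT in these classes thus compare unequal amounts of adipocyte transcripts, and the part of this was not tested. Per 1000 adipocyte marker UMIs there were 5.73 Trib3 UMIs in KO adipocyte, 6.03 in ASPC, 5.35 in endothelial, 1.72 in mural and 6.27 in immune nuclei. In WT the same measure for Trib3 was 0.114 in adipocyte, 0.858 in ASPC, 0.903 in endothelial, 0 in mural and 0.566 in immune nuclei. The proportion of Trib3 to adipocyte markers was thus alike in KO adipocyte, ASPC, endothelial and immune nuclei, while in WT it was lower in adipocyte nuclei than in those 3 classes. For Gdf15 the measure was 2.28 in KO adipocyte and between 3.44 and 6.40 in the other classes. The KO nuclei that took no class held Trib3 at 42.1 CPM, between the adipocyte and the other classes. Gdf15 and Atf3 were higher in them than in KO adipocyte nuclei, each at 32.3 CPM against 26.3 and 10.6 CPM. Atf4 was also higher there, at 51.8 against 41.3 CPM, and Psat1 lower, at 19.8 against 29.6 CPM. Sesn2 and Chac1 were higher and Asns, Fgf21 and Ddit3 lower, each with overlapping intervals.

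Immune nuclei differed from adipocytes in Atf3 and Gdf15. The immune class was 5.93% of kept nuclei in WT and 37.4% in KO. Whether it had the same makeup in both libraries was not tested. Atf3 had 31.6 CPM in WT (26.0 to 38.1) and 75.6 CPM in KO (72.4 to 78.9) immune nuclei, a log2 ratio of 1.26 (0.98 to 1.55), opposite in direction to adipocyte nuclei, though the difference between the classes was not tested. The share of immune nuclei with Atf3 was 8.98% in WT and 21.7% in KO, at median depths of 3381 and 4311.5 UMIs, and 4.09% and 6.48% after thinning to 1000 UMIs. In KO endothelial nuclei Atf3 was found in 2.89%. Per 1000 adipocyte marker UMIs, Atf3 had 33.4 UMIs in KO immune and 0.924 in KO adipocyte nuclei. Gdf15 was present in immune nuclei of both libraries, at 11.02 CPM in WT (7.80 to 15.1) and 14.5 CPM in KO (13.1 to 15.97). Its interval for the ratio, -0.09 to 0.91 on the log2 scale, included no difference, and the WT level was above the 0.461 CPM of WT adipocyte nuclei. Atf4 in immune nuclei was at 44.4 CPM in WT and 40.4 CPM in KO, with a log2 ratio of -0.14 (-0.38 to 0.12). It was lower in KO in ASPC (60.2 against 34.8 CPM, log2 ratio -0.79, -1.07 to -0.50) and in endothelial nuclei (55.5 against 43.8 CPM, -0.34, -0.61 to -0.08). Srsf1 was lower in KO in these classes as well, at 119 and 82.3 CPM in ASPC, 141 and 83.5 CPM in endothelial and 106 and 63.8 CPM in immune nuclei. The classes also held adipocyte transcripts, more of them in WT than in KO. The part of either in the Atf4 levels was not tested.

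The wider pathway was read from a list of 73 genes in 9 groups, of which 72 had enough UMIs for a ratio in adipocyte nuclei. At least 2-fold higher in KO were 31 of them and at least 2-fold lower 5, with a median log2 ratio of 0.79, beside the shares of 17.2% and 18.5% of all genes. The intervals lay above 0 for 53 genes and below 0 for 11. In ASPC, 6 of 72 genes of the list with a ratio were at least 2-fold higher and 7 at least 2-fold lower, against 6.05% and 11.4% of all genes. In endothelial nuclei they were 10 and 8 of 71, against 3.97% and 14.0%. In mural nuclei they were 10 and 8 of 66, against 4.16% and 11.4%, and in immune nuclei 8 and 6 of 71, against 7.89% and 11.9%. The medians in these classes lay between 0.09 and 0.16. The shares of all genes cover genes with at least 50 UMIs, whereas the counts of the list also take sparser genes. Of the list, 66 genes in ASPC, 61 in endothelial, 38 in mural and 69 in immune nuclei had 50 UMIs. The counts and shares are therefore not on equal terms, least of all in mural nuclei.

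Amino acid genes gave the highest medians of the groups. Of 11 genes of serine, one-carbon and other amino acid synthesis, 8 were at least 2-fold higher and 0 at least 2-fold lower in KO. The shares of all genes were 17.2% and 18.5%, and the median log2 ratio of the group was 1.75. Phgdh, the first enzyme of serine synthesis, had 2.76 CPM in WT and 32.8 CPM in KO, a log2 ratio of 3.57. Psph, the last enzyme of that pathway, had 24.7 and 14.6 CPM, a log2 ratio of -0.76, so the 3 steps Phgdh, Psat1 and Psph did not move together. Gpt2, which makes alanine in mitochondria, had 8.47 and 61.1 CPM, and Cbs, of transsulfuration, 1.16 and 8.23 CPM. The folate enzyme Mthfd2 was just short of 2-fold, at 11.4 and 22.4 CPM.

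Of 10 amino acid transport genes, 7 were at least 2-fold higher and 0 at least 2-fold lower, against 17.2% and 18.5% of all genes. Their median was 2.32. Slc7a1, which carries arginine and lysine, went from 3.27 CPM in WT to 61.6 CPM in KO, a log2 ratio of 4.24. Slc7a5, the large neutral transporter, had 10 UMIs in WT and 70 in KO, a log2 ratio of 4.50 (3.54 to 5.62). Its partner chain Slc3a2 was at 76.2 and 96.2 CPM, a log2 ratio of 0.34. Slc38a2 stood at 106 and 97.0 CPM. Of 13 genes of tRNA charging, 6 were at least 2-fold higher, against 17.2% of all genes, and 12 had intervals above 0. Among them were Aars (22.2 and 88.1 CPM), Wars (14.9 and 52.5 CPM) and the tRNA exporter Xpot (63.4 and 212 CPM). Mars, which lies opposite to Ddit3, was the exception at 13.7 and 13.3 CPM.

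Of 7 genes for eIF2alpha, its kinases and its phosphatase subunits, 1 was at least 2-fold higher and 0 at least 2-fold lower. The shares of all genes were 17.2% and 18.5%, and the median log2 ratio of the group was 0.04. None of the 4 eIF2alpha kinases was past 2-fold, with log2 ratios of 0.33 for Eif2ak1, 0.26 for Eif2ak2, 0.04 for Eif2ak3 and -0.07 for Eif2ak4. Ppp1r15a (GADD34), the inducible phosphatase subunit that reverses the phosphorylation, had 6.23 CPM in WT and 21.9 CPM in KO, whereas the constitutive Ppp1r15b was at 74.7 and 69.8 CPM. Of 7 genes grouped as mitochondrial relay, 2 were at least 2-fold higher and 2 at least 2-fold lower, beside the same shares of all genes. Their median was 0.45. Besides Oma1 and Dele1 the group holds other mitochondrial proteases, chaperonins and Pck2, so its counts do not describe the relay alone. The protease Oma1 had a log2 ratio of 0.81 and Dele1 one of 0.45, both short of 2-fold. Pck2, which makes phosphoenolpyruvate in mitochondria, and the protease Lonp1 were past 2-fold higher (2.89 and 1.38). The mitochondrial chaperonins Hspd1 and Hspe1 were lower, at -1.23 and -1.92.

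Among the other transcription factors, Atf5, a relative of ATF4 tied to mitochondrial stress, had 15.9 CPM in WT and 113.7 CPM in KO, a log2 ratio of 2.84. Cebpg, a dimer partner of ATF4, had 55.3 and 166 CPM, and Xbp1 15.5 and 36.9 CPM. Cebpb was lower, at 213 CPM in WT and 89.4 CPM in KO. The 2 paralogs of Trib3 went the other way from it. Trib1 had 74.4 and 37.5 CPM, a log2 ratio of -0.99, and Trib2 192 and 14 UMIs, a ratio of -2.08. Of 12 stress effectors, 4 were at least 2-fold higher and 1 at least 2-fold lower, against 17.2% and 18.5% of all genes. Stc2 (log2 ratio 4.07), Ero1l (2.73) and Sqstm1 (1.53) were higher, as was Bbc3 (5.20 and 14.7 CPM), and Ddit4, a restrainer of mTORC1 like Sesn2, was lower at -2.13. Of the genes of the endoplasmic reticulum in this group, the oxidase Ero1l stood at 27.1 CPM in WT and 180.3 CPM in KO, Hspa5 at 75.8 and 76.6 CPM, Herpud1 at 30.6 and 30.5 CPM and Dnajb9 at 29.1 and 23.6 CPM.

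**Figure D3:**
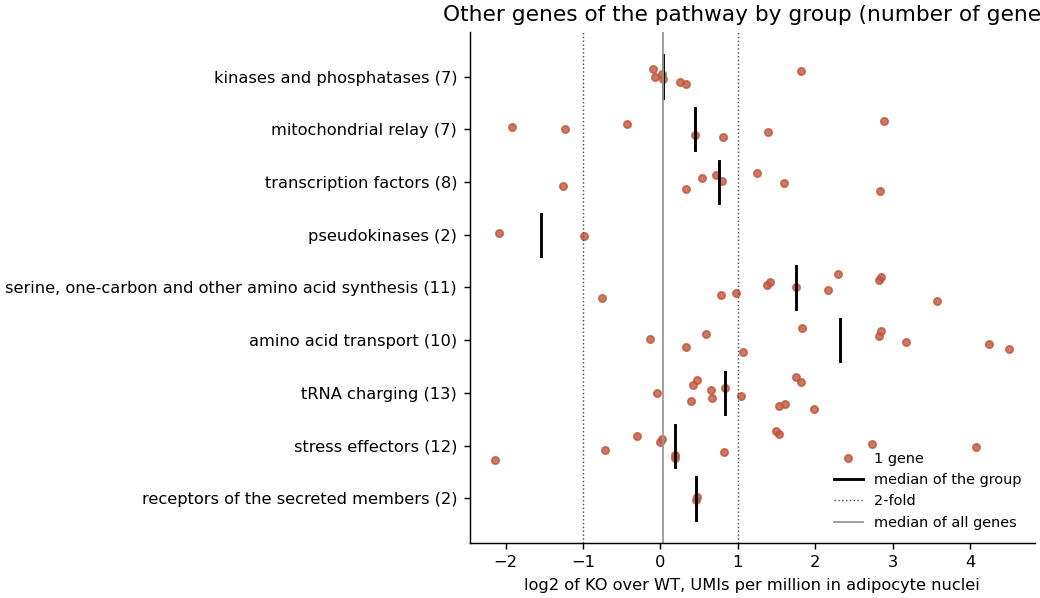
log2 ratio of KO over WT (CPM in adipocyte nuclei) of 72 further pathway genes in 9 groups, with a point for each gene, a bar at the median of the group and dotted lines at 2-fold. The medians of amino acid transport (2.32) and amino acid synthesis (1.75) lie to the right of 2-fold, and those of the kinases and the stress effectors lie near 0.

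Trib3 was found in 564 of 1727 KO adipocyte nuclei, and these were deeper than the rest, with medians of 8026.5 against 5882 UMIs. The number of nuclei expected to hold both Trib3 and another gene was therefore summed over 10 groups of equal depth. Over the 9 other members the observed number was between 1.01 and 1.33 times the expected, with a median of 1.19, and 0 reached 1.5 times. Over all 11038 genes found in at least 50 of these nuclei, 0.0453% reached 1.5 times, the median was 1.03 and the 5th to 95th percentile ran from 0.888 to 1.20. All 9 members were above 1, as were 67.4% of all genes. The excess was thus small for each member by this measure. Of the 564 nuclei with Trib3, 348 held 1 Trib3 UMI, and detection this sparse holds the ratio down for linked genes too. The size of the ratio therefore does not measure how strongly a member goes with Trib3. The nuclei also share 1 library and their depth, so these are descriptions.

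Gdf15 and Trib3 were found together in 121 nuclei where 97.8 were expected, a ratio of 1.24 (1.03 to 1.48), and 2.70% of all genes had a ratio at least as high. Ddit3 occurred with Trib3 in 191 nuclei against 160 expected, a ratio of 1.19 (1.03 to 1.37). For the remaining members the counting interval included 1. Atf3 was highest at 1.33 (0.975 to 1.78), from 46 nuclei with both, and Fgf21 followed at 1.32 (0.659 to 2.36) from 11. Chac1 had 1.20, Sesn2 1.16, Asns 1.15 and Atf4 1.13. Psat1 stood at 1.01 (0.841 to 1.21), although its KO over WT ratio was among the larger ones. Thinned to 3000 UMIs per nucleus, Atf3 alone passed the limit, at 1.67, and Asns had 0.844.

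Among genes outside the pathway, Mreg, which was also much higher in KO adipocyte nuclei (2.15 CPM in WT and 102 CPM in KO), had 1.24 (1.09 to 1.40), which was below Atf3 and Fgf21 and level with Gdf15. Marc1, at 6.98 and 159 CPM, had 1.01, Srsf1 1.06 and Ucp1 1.13. Slc7a10 (0.874, 0.752 to 1.01) and Lep (0.900, 0.764 to 1.05), genes of white adipocytes, were below 1 with intervals that included 1. The ratio was largest for Cyp2b10 (1.56), Slit1 (1.49), Gm34983 (1.45) and Kng1 (1.42) among genes found in at least 100 nuclei, followed by Pdzd7, Cpox, Tmem82, Asb5, Gm44777 and Ankrd39. No gene of the pathway list was among these 10. They were taken from 9033 genes found in at least 100 nuclei, of which the pathway list can make up only a small part. A list that short would seldom place a gene among the 10, so its absence does not tell whether the pathway goes with Trib3. Nuclei with Trib3 held adipocyte markers at 10444 CPM and immune markers at 285 CPM, and nuclei without it held 12302 and 222 CPM.

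**Figure D4:**
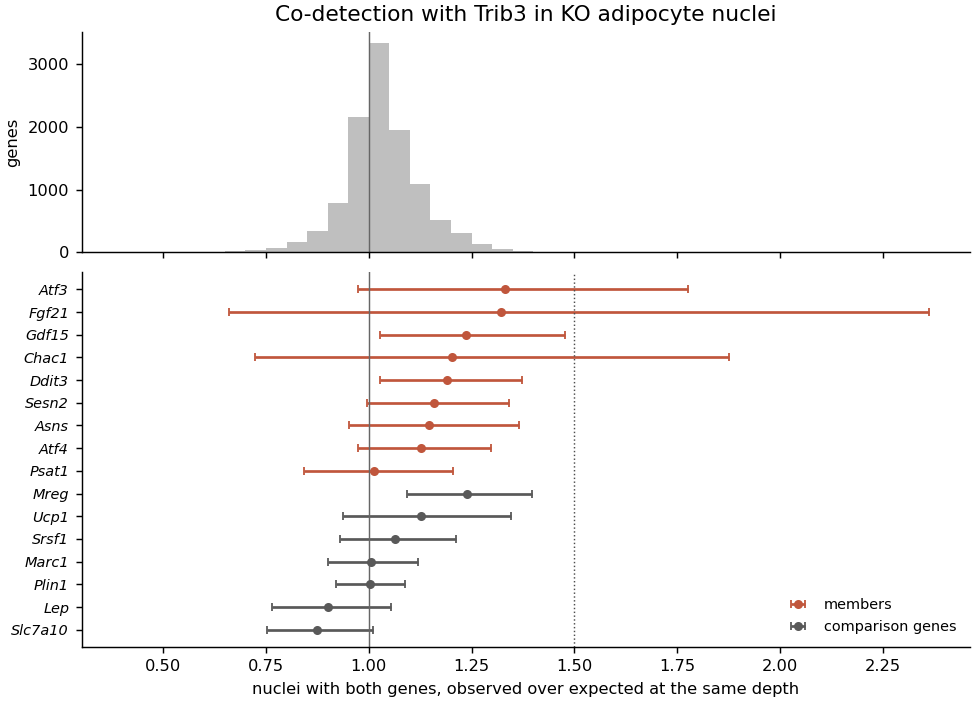
Above, the number of genes by their co-detection with Trib3 in KO adipocyte nuclei (observed over expected nuclei with both, at equal depth). Below, the 9 other members (red) and 7 comparison genes (grey) with exact 95% Poisson intervals, the dotted line marking 1.5, which no member reaches.

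The level of the members was also compared between nuclei with and without Trib3. Gdf15 was at 33.1 CPM in nuclei with Trib3 and 21.3 CPM in those without, a log2 ratio of 0.64 (0.34 to 0.94). The intervals of Sesn2 (0.38), Asns (0.32), Ddit3 (0.28) and Atf4 (0.27) were also above 0. Those of Psat1, Chac1, Fgf21 and Atf3 included 0. Atf3, the member with the highest co-detection, was the one member with a lower level in nuclei with Trib3, at 9.54 against 11.4 CPM, a log2 ratio of -0.26 (-0.76 to 0.23). Among all pairs of the 10 members, 33 had at least 10 nuclei expected with both. Their ratios ranged from 0.722 (Atf3 with Sesn2) to 1.38, with a median of 1.14, and 28 were above 1. The share above 1 over all pairs of genes was not computed. With Trib3 as one of the pair, 67.4% of all genes were above 1, so the 28 cannot be read as particular to the members. Of the 22 nuclei with Fgf21, 15 held Sesn2 where 5.90 were expected, a ratio of 2.54 (1.42 to 4.19), a pair picked after its values were seen.

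Counting how many of the 10 members a nucleus held gave a view of single nuclei in both libraries. After thinning to 3000 UMIs, which left out 184 WT and 130 KO adipocyte nuclei as too shallow, 64.6% of WT and 44.8% of KO nuclei held none. At least 3 members were found in 0.588% of WT and 4.38% of KO nuclei, that is in 25 and 70 nuclei. At full depth these shares were 8.68% and 23.9%. The mean number found at 3000 UMIs was 0.416 in WT and 0.796 in KO. Most KO adipocyte nuclei thus showed 0 or 1 member at this depth.

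**Figure D5:**
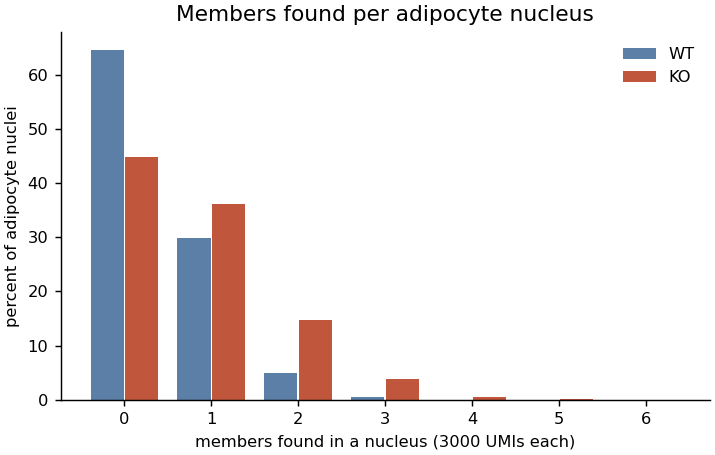
Percent of adipocyte nuclei of the WT (blue) and KO (red) libraries by the number of the 10 members found in each after thinning to 3000 UMIs. The KO bars are lower at 0 members (44.8% against 64.6%) and higher at 1 to 5 members.

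KO adipocyte nuclei in which the white adipocyte genes Lep or Slc7a10 were found (733 nuclei, median 8227 UMIs) were compared with the other 994 (median 5696.5 UMIs). Trib3 was at 57.2 CPM in the former and 75.9 CPM in the latter, a log2 ratio of -0.41 (-0.60 to -0.22), and Gdf15 at 20.4 and 33.1 CPM (-0.70, -1.01 to -0.40). Psat1 went the other way, at 33.0 and 25.7 CPM (0.36, 0.08 to 0.65). Ddit3 was lower in the former, at 36.3 against 52.5 CPM (-0.53, -0.77 to -0.30), and Atf3 showed the largest difference of the members, at 7.45 against 14.3 CPM (-0.94, -1.44 to -0.44). Asns, Sesn2, Atf4, Chac1 and Fgf21 had intervals that included 0.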

How the data were processed

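Nuclei of 1 WT and 1 KO library were prepared with the 10x Genomics 3' kit. The authors aligned reads to GRCm38 with STAR, and the tables they deposited hold unnormalized UMI counts for every gene and barcode. The submitters' processing notes name Cell Ranger 5.0.0 and Seurat 3.1.1, and the methods give another Cell Ranger version. Whether intronic reads or strand were used in counting is not given in the sources used here.

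Nuclei with fewer than 200 genes, with log UMIs or log genes over 3 median absolute deviations from the median, or with over 10% mitochondrial UMIs were dropped, and 12771 WT and 11378 KO stayed. The UMIs of 8 marker lists (4 to 8 genes each) per 10000 UMIs were divided by 60 for adipocytes and 15 for other classes. A nucleus took the class with the highest value if that was at least 1, rested on 3 marker UMIs, and was 1.5 times the second. Adipocyte nuclei also needed 2000 UMIs. These limits were set after the counts had been seen. In adipocyte nuclei, 33 WT and 84 KO lay within 10% above the limit of 60 and 59 and 100 unclassed nuclei just below it. Nuclei of mixed markers were left out (1236 WT, 757 KO), no doublet caller was run, and 3637 WT and 1790 KO nuclei had no class. Schwann, muscle and red blood cell nuclei were too few and are not compared.

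UMIs were summed per class and library and scaled to 1000000 (CPM). Intervals are exact Poisson, exact binomial (Clopper-Pearson) or, for ratios, exact conditional binomial intervals at 95% and cover counting error only. A ratio against 0 UMIs used 3 counts, and no ratio was formed where both counts were 3 or fewer or the bound lay on the other side of 1. Thinning drew a fixed number of UMIs per nucleus and left out shallower nuclei. Genes named are the members, the pathway list, 7 comparison genes, the class markers and the 10 genes with the largest co-detection. Members and lists were chosen with earlier results of these data known. The ratio, its interval and the co-detection were tested on simulated data. Alternatives were other nucleus filters, class calls, scalings, thinning and depth groups. Coordinates are from GENCODE M21 and promoter windows from RefSeq. Python 3.11.15, numpy 2.4.6, scipy 1.17.1, pandas 2.3.3 and matplotlib 3.10.9 were used.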

Additional observations from a re-analysis of the deposited data

Results flagged for a closer look

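Atf3 had a log2 ratio of KO over WT of 1.26 in immune nuclei and -0.81 in adipocyte nuclei, with counting intervals on opposite sides of 0. It is listed here because the 2 classes moved in opposite directions. The difference between the classes was not tested, since there was 1 library per genotype. Whether the immune class had the same makeup in both libraries was not tested either.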

How the results depend on the processing

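With the level in endothelial nuclei of the same library subtracted, 5 members (Ddit3, Asns, Fgf21, Psat1 and Sesn2) kept a value above 0 in both libraries. Trib3 and Gdf15 did not, as WT adipocyte nuclei held less of them than WT endothelial nuclei (1.34 against 4.70 and 0.461 against 0.983 CPM). Of the 5, 4 were at least 2-fold higher in KO adipocyte nuclei. The median log2 ratio of the 5 was 3.52, over another set of genes than the main median. Psat1 reached 11.6 because its WT level was 1.86 CPM in adipocyte and in endothelial nuclei alike. Of 39 pathway genes with a ratio, 1 was at least 2-fold lower. Thinned to 3000 UMIs, 1 member reached 1.5 times the expected co-detection with Trib3. Of 115 recomputed member ratios, 105 lay within the main counting interval, 10 lay outside it in the same direction and 0 reversed, and 71 of 72 recomputed co-detections lay within theirs. Keeping nuclei of mixed markers, taking the mean over nuclei or centring on the median ratio gave 6 members at least 2-fold higher, with Asns just short of it at 0.98, 0.97 and 0.99 on the log2 scale. Leaving out barcodes found in both libraries gave 7 members and a median of 2.11, and requiring 90 adipocyte marker UMIs per 10000 gave 6 and 1.86, both added after the data were seen. No paired analysis was possible because there was 1 library per genotype. Depth limits Fgf21 and Chac1 most, with 22 and 36 UMIs in KO adipocyte nuclei.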
